A study of Mus musculus with 6 samples.

Results

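Secreted ligands and membrane receptors that guide the growth of blood and lymphatic vessels were followed in the skin of mice given topical rebamipide. The genes were those of the ligands Vegfb, Vegfc, Pgf, Angpt1, Angpt2 and Apln and the receptors Flt4, Nrp1, Nrp2 and Aplnr. The members were chosen by symbol, by a rule that uses no measured value but with earlier results of these data known, and they make up 10 of the 21959 genes in the deposited table. All 10 passed the filter on low counts and are among the 14875 genes tested.

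The mice were wild-type male C57BL/6 animals, 7 weeks old, whose dorsal hair was shaved in telogen, the resting phase of the hair cycle. One group received vehicle alone, a mixture of 30% dipropylene glycol and 70% water. The other received 3% rebamipide, a mucosal protective drug, for which the methods name no carrier. Both were treated daily on the skin for 7 days, and full-thickness dorsal skin was taken for poly-A RNA-seq, with 3 libraries per group from 3 mice each. Full-thickness skin holds epidermis, dermis, dermal fat, vessels and often the muscle sheet beneath, so each value is a sum over many cell types, and fewer cells of a type cannot be told apart from less RNA per cell.

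Vessels grow when endothelial cells receive signals from the tissue around them. Ligands of the VEGF family act on the receptor tyrosine kinases Flt1, Kdr and Flt4: Vegfa on Flt1 and Kdr, Vegfb and Pgf on Flt1, and Vegfc and Vegfd on Flt4, the main receptor of lymphatic vessels. The neuropilins Nrp1 and Nrp2 are coreceptors that bind both VEGF ligands and class 3 semaphorins. Angiopoietins act on Tek (also called Tie2), where Angpt1 steadies vessels and Angpt2 loosens them in many settings, and apelin (Apln) acts on the G protein-coupled receptor Aplnr of sprouting endothelium. In fat, a dense capillary bed supplies the adipocytes, and Vegfb has been tied to the uptake of fatty acids by endothelium. In skin, the capillary supply of the hair follicle widens and recedes with the hair cycle.

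Of the 10 genes, Vegfb, Nrp1, Apln and Aplnr were higher in the rebamipide libraries at an adjusted p-value under 0.05 (edgeR's quasi-likelihood test, Benjamini-Hochberg adjustment over all 14875 genes), and 0 were lower. The other 6 did not pass. This is 40% of the members called higher, beside 14.1% of all genes tested, and 0% called lower beside 6.51%, a description rather than a test, given how the members were chosen. The median log2 fold change was 0.77 over the members and -0.17 over all genes tested. In 5 of the 10 genes, the 4 called and Vegfc, every rebamipide library lay above every vehicle library in CPM, the read counts scaled to library size with edgeR's TMM factors, beside 24.5% of all genes, and in 0 genes did every rebamipide library lie below, beside 24% of all genes. All 10 carry the GO term angiogenesis in the table. The 232 other tested genes of that term, a set looked up after the members' values were seen, had 33 genes higher and 20 lower, with a median log2 fold change of -0.18.

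**Figure D1:**
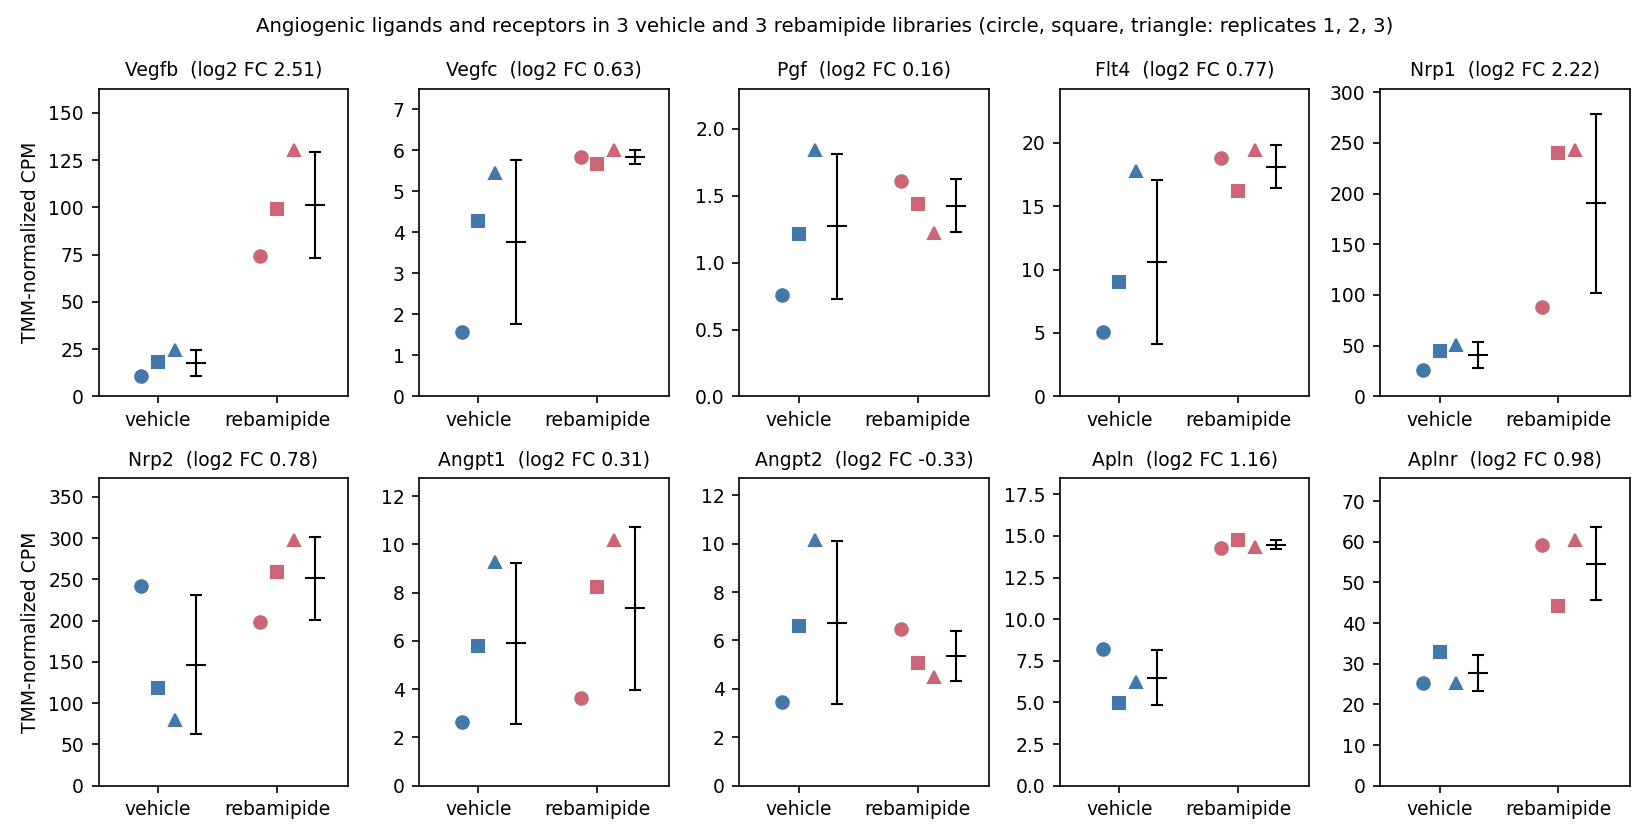
TMM-normalized CPM (y axis, linear, from 0) of the 10 genes in the 3 vehicle and 3 rebamipide libraries, with replicate 1, 2 and 3 as circle, square and triangle and the mean ± SD beside them. Vegfb, Nrp1, Apln, Aplnr and Vegfc show no overlap between groups, and Vegfb runs from 10.6 to 24.7 CPM in vehicle and from 74.2 to 130.1 CPM in rebamipide.

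The total counts were 38676018 to 39915276 per vehicle library and 32709801 to 34706852 per rebamipide library. A count of 0 allows up to 3 counts, or 0.0752 to 0.0917 CPM before TMM scaling, a limit that covers only counting error. The share of counts from mitochondrially encoded genes was 2.59% to 5.36% in vehicle and 13.28% to 21.96% in rebamipide, so the scaling between groups matters: the median log2 fold change of all genes was -0.17 with TMM and -0.78 with total counts alone. The third rebamipide library stood apart, since it held 0 counts of Krt14 and 4 of Krt5, the keratins of basal keratinocytes, where the other libraries held 6102 to 64371 counts of Krt14 and 5368 to 77535 of Krt5. The label skin is thus not borne out by keratinocyte markers in that library, and the calls of the members, of the named pathway genes and of the marker lists are also given without it. Without it, edgeR called 1 of the 10 genes, Vegfb, and limma-voom likewise 1, in fits that called 6.6% and 5.94% of all genes higher, against 14.1% with all libraries. DESeq2, with 13.3% of all genes higher, kept Vegfb, Nrp1, Apln and Aplnr under 0.05. All 3 rebamipide libraries also differed from vehicle in brown fat markers. Ucp1, the uncoupling protein that defines brown adipocytes, was at 0 throughout vehicle, while rebamipide libraries 1, 2 and 3 held 81048, 220449 and 150572 counts. Each fold below therefore compares tissue of different makeup under the same label, and an effect of treatment and a difference in the tissue taken cannot be told apart. The study's methods give 3 mice per group, and the labels number the libraries without naming an animal.

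Vegfb (ENSMUSG00000024962, chromosome 19, 6959841 to 6965019, minus strand) encodes VEGF-B, a ligand of Flt1 and Nrp1. It had 10.6, 17.95 and 24.7 CPM in the vehicle libraries and 74.2, 99.3 and 130.1 CPM in the rebamipide libraries. The groups were far apart, with the lowest rebamipide library above the highest vehicle library. The means were 17.7 ± 7.06 and 101 ± 28.0 CPM (SD, n = 3 each), a log2 fold change of 2.51 (SE 0.38, adjusted p = 0.01225 with edgeR), the largest of the 10. For 3 libraries against 3, a two-sided exact permutation test cannot go below p = 0.1, and it gave that value. Scaled by total counts alone the log2 fold change was 1.88 (adjusted p = 0.0161). Without the third rebamipide library it was 2.30 (adjusted p = 0.0303). Left out singly, the second vehicle library (adjusted p = 0.0788) and the second rebamipide library (adjusted p = 0.0606) each left Vegfb above 0.05, at log2 fold changes of 2.48 and 2.53. In those 2 fits edgeR called 0 and 1 genes of the whole table, while 4116 and 4062 genes had an unadjusted p under 0.05, and DESeq2 called 3516 and 4957 genes, Vegfb among them.

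Since Vegfb, Nrp1 and Apln were the called members with a promoter in the RefSeq table (assembly GRCm38.p6, a build other than that of the counts), the 250 bases before their transcription starts are shown so that the windows searched for motifs can be read. Capitals mark GC boxes, the letters GGGCGG on either strand, and each window runs 5′ to 3′ along its gene. The Vegfb window is chr19:6987652-6987901 (minus strand), the Nrp1 window chr8:128358823-128359072 (plus strand) and the Apln window chrX:48034854-48035103 (minus strand).

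Vegfb: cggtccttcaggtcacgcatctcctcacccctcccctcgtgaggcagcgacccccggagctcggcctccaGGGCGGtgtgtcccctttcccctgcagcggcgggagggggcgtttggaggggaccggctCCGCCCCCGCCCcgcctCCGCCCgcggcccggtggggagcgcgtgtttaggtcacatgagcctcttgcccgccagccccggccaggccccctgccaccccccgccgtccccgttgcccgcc

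Nrp1: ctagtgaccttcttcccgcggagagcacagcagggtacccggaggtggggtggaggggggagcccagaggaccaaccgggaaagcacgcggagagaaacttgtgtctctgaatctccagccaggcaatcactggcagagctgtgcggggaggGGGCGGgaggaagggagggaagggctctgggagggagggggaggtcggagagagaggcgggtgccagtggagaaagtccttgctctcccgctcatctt

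Apln: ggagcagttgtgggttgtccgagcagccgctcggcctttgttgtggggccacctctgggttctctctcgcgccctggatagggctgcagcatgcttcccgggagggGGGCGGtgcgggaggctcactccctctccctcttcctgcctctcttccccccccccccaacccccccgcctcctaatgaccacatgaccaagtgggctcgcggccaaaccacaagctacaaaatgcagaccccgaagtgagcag

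The Vegfb window held 4 GC boxes and was 76.4% G or C, the Nrp1 window held 1 at 64.4%, and the Apln window held 1 at 65.2%. Over all 32851 promoters of the table, 32.74% of the 250-base windows held a GC box, and the median G and C content was 52.4%. Of the 10 members, 7 had an entry, with 8 promoters of 300 bases (250 before and 50 after the start), and Angpt1, Angpt2 and Aplnr are named only. In these promoters the uncalled members Nrp2, Flt4 and Vegfc held 5, 3 and 2 GC boxes, and those of Pgf held 0 and 2. GC boxes thus did not set the called members apart. ACGTG, the core of the hypoxia response element, and TCAAGGTCA, an element bound by estrogen-related receptors, were searched on both strands. Neither was found in any of the 8 promoters, while 19.62% and 0.4231% of all promoters held them. These letters describe the windows and say nothing of which factors act there.

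Vegfc (ENSMUSG00000031520, chromosome 8, 54530641 to 54640131, plus strand) encodes VEGF-C, the principal growth factor of lymphatic vessels. It had 1.56, 4.28 and 5.45 CPM in vehicle and 5.83, 5.65 and 5.99 CPM in rebamipide. The rebamipide libraries were close together and just above the highest vehicle library, while the first vehicle library was low. The difference did not pass the test, with a log2 fold change of 0.63 (SE 0.48, adjusted p = 0.3606 with edgeR). It was 0.23 without the first vehicle library (adjusted p = 0.555), 1.00 without the third (adjusted p = 0.231) and 0.03 with total counts alone (adjusted p = 0.964), and the deposited FPKM of the groups overlapped.

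Pgf (ENSMUSG00000004791, chromosome 12, 85213409 to 85224564, minus strand) encodes placental growth factor, a second ligand of Flt1. It was the lowest of the 10 genes, with 38, 60 and 86 counts in vehicle and 49, 37 and 32 counts in rebamipide, or 0.761 to 1.84 CPM and 1.22 to 1.61 CPM. The groups overlapped, and the log2 fold change was 0.16 (SE 0.45, adjusted p = 0.8059), turning to -0.43 with total counts alone and -0.13 without the first vehicle library. The difference of the mean CPM, 1.27 and 1.43, was smaller than the SD of the vehicle libraries, 0.541.

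Flt4 (ENSMUSG00000020357, chromosome 11, 49500090 to 49543566, plus strand), the receptor of VEGF-C and VEGF-D, had 5.11, 9.02 and 17.8 CPM in vehicle and 18.8, 16.2 and 19.4 CPM in rebamipide. The third vehicle library lay inside the rebamipide range, and the other vehicle libraries lay below it. The log2 fold change was 0.77 (SE 0.46, adjusted p = 0.2537), and Flt4 did not pass. Without the third vehicle library it was 1.37 (adjusted p = 0.0594 with edgeR), where DESeq2 (adjusted p = 0.000334) and limma-voom (adjusted p = 0.0389) placed it under the threshold. It was 0.41 without the first vehicle library (adjusted p = 0.439) and 0.17 with total counts alone (adjusted p = 0.762).

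The neuropilins differed from each other in how they behaved among libraries. Nrp1 (ENSMUSG00000025810, chromosome 8, 129085085 to 129229844, plus strand) is the coreceptor that joins Kdr on blood endothelium. It had 26.4, 45.0 and 50.9 CPM in vehicle and 88.5, 239.9 and 242 CPM in rebamipide. All rebamipide libraries were above all vehicle libraries, but the first of them held far less than the others. The means were 40.8 ± 12.8 and 190.2 ± 88.2 CPM (SD, n = 3 each), with a log2 fold change of 2.22 (SE 0.47, adjusted p = 0.02607 with edgeR). Leaving out the third rebamipide library gave 2.02 (adjusted p = 0.0568), and leaving out the first gave 2.57 (adjusted p = 0.00901). Leaving out the first vehicle (adjusted p = 0.0662), second vehicle (adjusted p = 0.107) or second rebamipide library (adjusted p = 0.0991) also took edgeR's call away.

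Nrp2 (ENSMUSG00000025969, chromosome 1, 62742444 to 62857854, plus strand), the coreceptor of VEGF-C on lymphatic endothelium and a receptor of Sema3f, had 242, 118 and 79.9 CPM in vehicle and 198, 258.5 and 298 CPM in rebamipide. The first vehicle library, which was lowest of the vehicle libraries for 7 of the 10 genes, was highest of them for Nrp2 and lay inside the rebamipide range. The log2 fold change was 0.78 (SE 0.44, adjusted p = 0.2277), so Nrp2 did not pass. The value varied with single libraries and with the scaling. Without the first vehicle library edgeR gave a log2 fold change of 1.32 (adjusted p = 0.0452), and DESeq2 and limma-voom also called Nrp2, whereas it was 0.49 without the third vehicle library (adjusted p = 0.396) and 0.13 with total counts alone (adjusted p = 0.82).

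The angiopoietins showed no difference past the spread between libraries. Angpt1 (ENSMUSG00000022309, chromosome 15, 42288119 to 42540373, minus strand), which mural and stromal cells release to activate Tek, had 2.62, 5.81 and 9.28 CPM in vehicle and 3.62, 8.22 and 10.2 CPM in rebamipide. The first library of each group was the lowest of that group. The log2 fold change was 0.31 (SE 0.58, adjusted p = 0.7079), and it was -0.34 with total counts alone. By edgeR it was -0.08 without the first vehicle library, 0.79 without the third and 0.01 without the third rebamipide library. Angpt2 (ENSMUSG00000031465, chromosome 8, 18740279 to 18791578, minus strand), which endothelial cells release and which often opposes Angpt1, had 3.46, 6.60 and 10.2 CPM in vehicle and 6.49, 5.07 and 4.50 CPM in rebamipide. With TMM it was the single member with a negative log2 fold change, -0.33 (SE 0.44, adjusted p = 0.598), which turned to 0.10 without the third vehicle library. Angpt2 lies inside the span of Mcph1 on the opposite strand, and the library protocol names no step that marks strand, so reads of both genes cannot be told apart there and its counts are uncertain.

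The apelin ligand and its receptor both passed, at smaller sizes than Vegfb and Nrp1. Apln (ENSMUSG00000037010, chromosome X, 47114023 to 47123730, minus strand), the peptide made by tip cells of growing vessels and by adipocytes, had 8.23, 4.96 and 6.24 CPM in vehicle and 14.3, 14.8 and 14.3 CPM in rebamipide. The rebamipide libraries were nearly equal and all above the vehicle libraries, with means of 6.48 ± 1.65 and 14.5 ± 0.27 CPM (SD, n = 3 each). The log2 fold change was 1.16 (SE 0.27, adjusted p = 0.0344 with edgeR). Aplnr (ENSMUSG00000044338, chromosome 2, 84966569 to 84970267, plus strand), the apelin receptor, had 25.3, 32.8 and 25.2 CPM in vehicle and 59.2, 44.2 and 60.5 CPM in rebamipide. Again no libraries overlapped, and the means were 27.8 ± 4.38 and 54.6 ± 9.06 CPM, a log2 fold change of 0.98 (SE 0.22, adjusted p = 0.02896).

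By edgeR, both apelin calls changed with the scaling and with single libraries. With total counts alone the log2 fold changes were 0.54 for Apln (adjusted p = 0.168) and 0.37 for Aplnr (adjusted p = 0.248). Relative to the median of all genes, the changes were 1.33 with TMM and 1.31 with total counts for Apln, and 1.15 with both for Aplnr, a likeness that follows from subtracting the median and does not bear on the lost calls. By the deposited FPKM, which are scaled by total counts, Vegfb, Nrp1 and Apln still had no overlap between groups (3 of 10 genes, beside 12.99% of all genes tested), while Aplnr overlapped. For Apln, leaving out vehicle library 2 (adjusted p = 0.139) or 3 (0.0729), or rebamipide library 2 (0.129) or 3 (0.0896), ended edgeR's call. For Aplnr, the same held for vehicle libraries 1 (adjusted p = 0.0717), 2 (0.0951) and 3 (0.0696) and for rebamipide libraries 2 (0.0722) and 3 (0.0911). The log2 fold changes in these fits lay between 0.89 and 1.17. The fits without vehicle library 2 or rebamipide library 2 are those in which edgeR called 0 and 1 genes of the whole table. DESeq2 called Apln (adjusted p up to 0.0139) and Aplnr (adjusted p up to 0.0215) with each of the 6 libraries left out in turn.

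Levels of different genes were compared per length, in deposited FPKM. In the vehicle libraries Nrp2 (15.5 ± 9.37), Vegfb (13.6 ± 5.10) and Aplnr (9.30 ± 1.45) came first, and each overlapped its neighbour. Nrp1 (5.14 ± 1.501) stood apart below them, followed by Apln (2.56 ± 0.71) and then Angpt2, Vegfc, Flt4, Angpt1 and Pgf, whose ranges overlapped from one gene to the next between 2.25 and 0.54 FPKM. In the rebamipide libraries Vegfb alone led, at 50.1 ± 9.77 FPKM, with its lowest library above the highest library of any other member. Nrp2 (16.9 ± 1.84), Nrp1 (15.1 ± 5.84) and Aplnr (12.0 ± 2.98) followed, where Nrp1 overlapped both others and those did not overlap each other, then Apln (3.72 ± 0.42), and Pgf stayed last at 0.40 ± 0.10 FPKM.

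Genes of the same pathways were described from a list of 37 ligands, receptors, partner proteins, regulators and inhibitors, of which Apela did not pass the filter. Of the 36 tested, 10 were higher (27.78%, beside 14.1% of all genes), 5 were lower (13.89%, beside 6.51%) and 21 did not pass, with a median log2 fold change of 0.08. Of the 9 ligands tested 2 were higher and 4 lower, of the 9 receptors 4 were higher and 0 lower, and of the 8 regulators of ligand transcription 3 were higher and 0 lower. Of the 5 processing or partner proteins 0 passed, and of the 5 inhibitors and tip cell genes 1 was higher and 1 lower. With total counts alone the split was 5 higher (beside 8.46% of all genes) and 9 lower (beside 25.2%), so the number lower was then near the background and the share lower under TMM is no result about the list. By edgeR, omitting rebamipide library 3 left 3 genes higher and 1 lower on the list, beside 6.6% and 2.49% of all genes. Omitting vehicle library 1 left 6 and 1, beside 10% and 2.52%, and omitting vehicle library 3 gave 12 and 1, beside 11.4% and 5.51%. Both counts were 0 without the second vehicle or the second rebamipide library, where edgeR called 0 and 1 genes of the whole table.

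**Figure D2:**
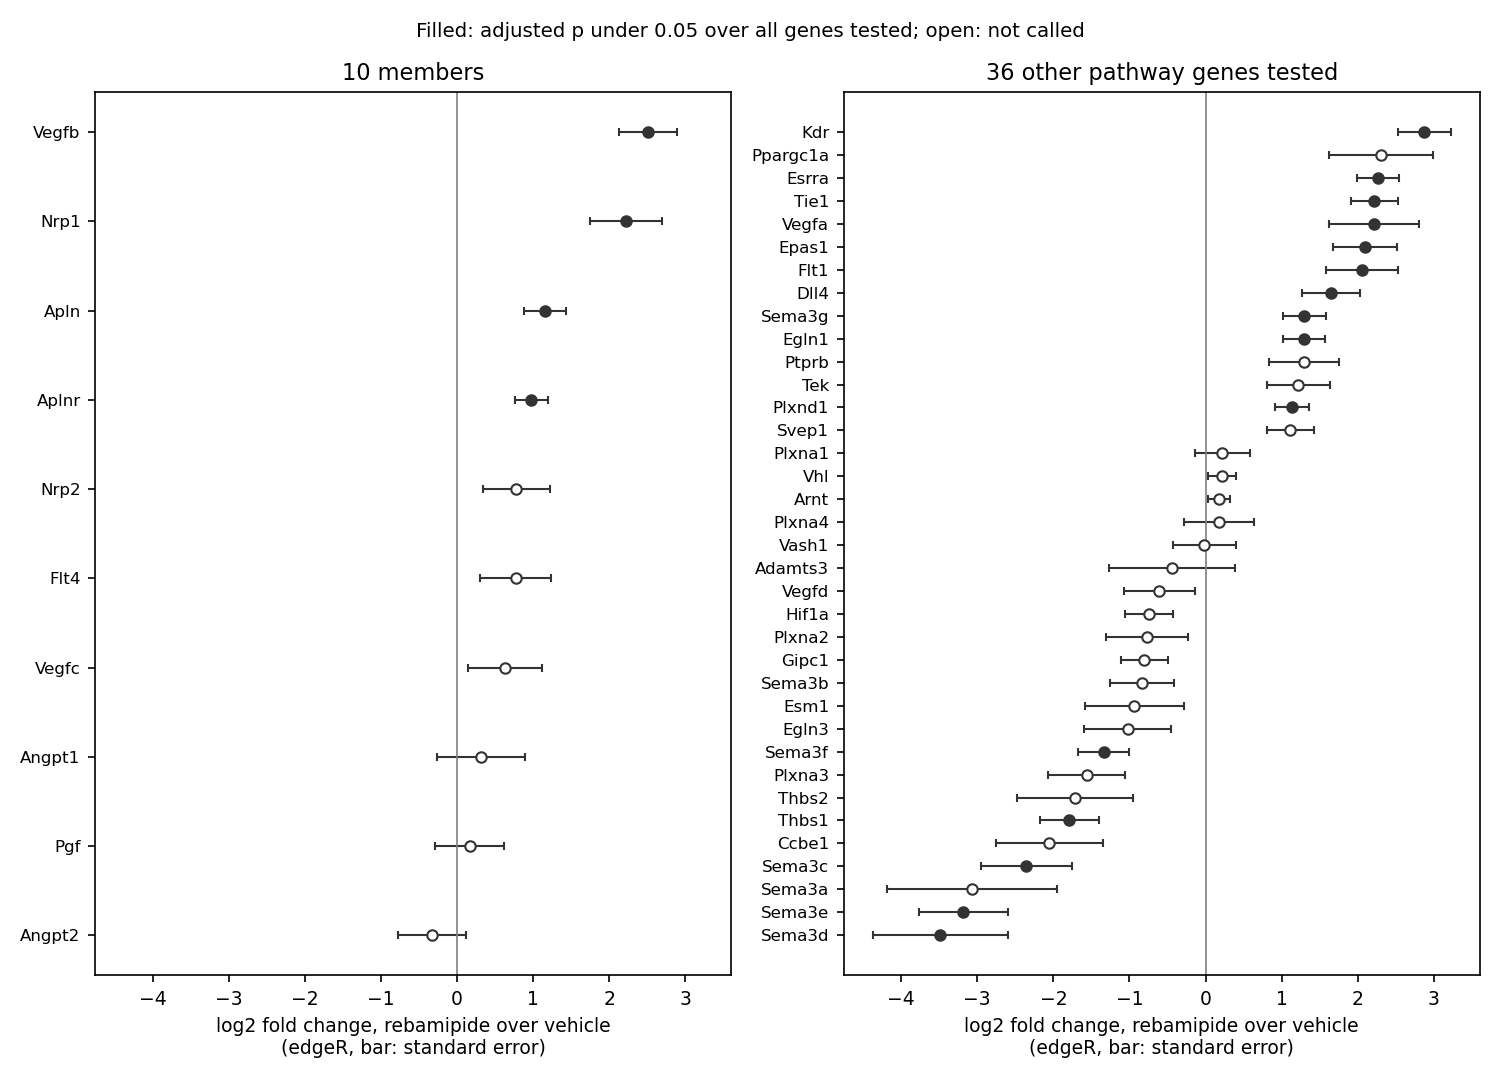
Log2 fold changes of rebamipide over vehicle from edgeR (x axis) with standard errors as bars, for the 10 members at the left and the 36 other pathway genes tested at the right. Filled points had an adjusted p under 0.05: 4 members, all higher, and 10 higher and 5 lower among the other genes, from Kdr at 2.87 to Sema3d at -3.48.

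Among the direct relatives, Kdr, the main signalling receptor of Vegfa on blood endothelium, rose the most. It had 33.9, 45.4 and 63.9 CPM in vehicle and 249.3, 365 and 434 CPM in rebamipide, with a log2 fold change of 2.87 (SE 0.35, adjusted p = 0.009787). Flt1, the receptor of Vegfb and Pgf, rose from 49.9 ± 27.0 to 207 ± 65.8 CPM (log2 fold change 2.05, SE 0.47, adjusted p = 0.03162). Vegfa itself rose from 72.2 ± 43.9 to 334 ± 164 CPM (log2 fold change 2.21, SE 0.59, adjusted p = 0.04682), and the orphan receptor Tie1 from 24.9 ± 7.18 to 116 ± 30.6 CPM (log2 fold change 2.22, SE 0.31, adjusted p = 0.01051). Tek, the angiopoietin receptor, had 46.1 ± 22.9 and 107.5 ± 22.7 CPM with no overlap between groups, yet did not pass (log2 fold change 1.22, SE 0.41, adjusted p = 0.07893). Vegfd, the other ligand of Flt4, had 12.6 ± 5.93 and 8.26 ± 2.93 CPM and did not pass (log2 fold change -0.61, adjusted p = 0.356).

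Of the remaining pathway genes, the 3 with the smallest p-values among those higher were Esrra, Plxnd1 and Epas1. Esrra, an estrogen-related receptor that drives mitochondrial genes, rose from 34.4 ± 6.91 to 166 ± 41.2 CPM (log2 fold change 2.27, SE 0.28, adjusted p = 0.009581). Epas1, the hypoxia-inducible factor HIF-2α, rose from 140.3 ± 67.2 to 598 ± 124 CPM (log2 fold change 2.09, adjusted p = 0.02298), whereas Hif1a had 88.8 ± 4.66 and 52.9 ± 20.6 CPM and did not pass (log2 fold change -0.75, adjusted p = 0.1358). Plxnd1, an endothelial plexin, rose from 62.0 ± 14.0 to 136 ± 6.93 CPM (log2 fold change 1.14, adjusted p = 0.02109). The 3 with the smallest p-values among those lower were Sema3e, Thbs1 and Sema3f. Sema3e, the repulsive ligand of Plxnd1, fell from 21.4 ± 4.24 to 2.35 ± 1.42 CPM (log2 fold change -3.18, SE 0.59, adjusted p = 0.01811). Thbs1, an inhibitor of angiogenesis, fell from 118.6 ± 17.4 to 34.3 ± 18.3 CPM (log2 fold change -1.79, adjusted p = 0.0281), and Sema3f, a semaphorin ligand of Nrp2, fell from 45.7 ± 9.18 to 18.0 ± 6.82 CPM (log2 fold change -1.34, adjusted p = 0.03859). Not all class 3 semaphorins were lower, since Sema3g, made by endothelial cells, rose from 28.5 ± 9.76 to 70.2 ± 10.2 CPM (log2 fold change 1.30, adjusted p = 0.02849). Sema3a, a semaphorin ligand of Nrp1, had 2.98 ± 1.504 and 0.349 ± 0.331 CPM and did not pass (adjusted p = 0.09566).

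Without the third rebamipide library, edgeR still called Kdr (adjusted p = 0.0221), Tie1 (0.0271) and Esrra (0.0235) higher and Sema3e (0.0219) lower. The other named pathway genes that had passed no longer did. Their adjusted p-values were 0.0707 for Flt1, 0.102 for Vegfa, 0.0534 for Epas1, 0.0627 for Plxnd1, 0.0734 for Thbs1 and 0.0841 for Sema3f. The values were 0.0762 for Sema3g and 0.0627 for Sema3d, which had 0.0413 with all libraries. All the named pathway genes that had passed kept their direction and were called by DESeq2, while limma-voom called the same 4 as edgeR.

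Ratios of 2 genes within a library, per length, do not depend on the scaling between libraries. In all, 7 pairs were compared with two-sided exact permutation tests, where 0.1 is the smallest possible p-value and the adjusted value over 7 pairs was then 0.2333, so none could pass. Vegfc to Vegfb was lower in every rebamipide library, with mean log2 ratios of -2.94 ± 0.37 in vehicle and -4.69 ± 0.39 in rebamipide (exact p = 0.1). Pgf to Vegfb was also lower in every rebamipide library, at -4.65 ± 0.07 and -6.96 ± 0.60 (exact p = 0.1), so both sister ligands were lower against Vegfb. Flt4 to Kdr was lower too, at -2.17 ± 0.44 and -4.10 ± 0.44 (exact p = 0.1), which sets the lymphatic receptor lower against the blood vessel receptor in every rebamipide library.

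The other 4 ratios overlapped between groups. Vegfb to Vegfa was -0.52 ± 0.32 and -0.20 ± 0.46 (exact p = 0.6), so the ratio of these ligands was not shown to differ while both genes rose. Apln to Aplnr was -1.89 ± 0.56 and -1.67 ± 0.28 (exact p = 0.8). Nrp1 to Nrp2 was -1.47 ± 1.31 and -0.25 ± 0.56 (exact p = 0.2), where the first vehicle library with its high Nrp2 stood lowest at -2.92. Angpt2 to Angpt1 was 0.73 ± 0.14 and 0.15 ± 1.05 (exact p = 0.4), with the first rebamipide library at 1.33 above all vehicle libraries and the other rebamipide libraries at -0.20 and -0.68 below them.

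Markers of several cell types moved with the groups. The summed CPM of 8 endothelial markers ranged from 221 to 536 in vehicle and from 897 to 1129 in rebamipide, with 4 of the 8 called higher and Vwf alone overlapping, whereas 4 lymphatic endothelial markers summed to 31.6 to 124 and 15.5 to 44.4 CPM, with 0 called. The 6 adipocyte markers summed to 1064 to 2522 CPM in vehicle and 8587 to 16900 CPM in rebamipide (6 of 6 called higher), and 6 brown adipocyte markers to 188 to 336 and 4708 to 12490 CPM (5 of 6 called higher). Ucp1 was at 0 CPM in vehicle and at 2669, 8591 and 5746 CPM in rebamipide, whereas Elovl3, an enzyme of fatty acid elongation also found in sebaceous glands, had 176, 128.6 and 238 CPM in vehicle and 82.3, 83.1 and 33.3 CPM in rebamipide and did not pass (log2 fold change -1.45, adjusted p = 0.0575). The 6 mural markers ranged from 244 to 394 and from 496 to 956 CPM (1 of 6 called higher), and 3 red blood cell markers from 40.0 to 185 and from 319 to 750 CPM (3 of 3 called higher). No gene was called in the lists of 6 fibroblast, 5 keratinocyte, 4 leukocyte and 5 fast muscle markers, which summed in rebamipide to 1850 to 15110, 3.36 to 1820, 28.2 to 127.6 and 238 to 28950 CPM against 12000 to 17740, 2278 to 6446, 65.0 to 146 and 4595 to 22620 CPM in vehicle. The 5 slow muscle markers summed to 1.88 to 13.2 and 5.19 to 256 CPM (3 of 5 called higher). Without the third rebamipide library, edgeR called 1 of 8 endothelial, 4 of 6 adipocyte, 4 of 6 brown adipocyte, 0 of 6 mural, 0 of 3 red blood cell and 3 of 5 slow muscle markers higher, and 1 of 5 keratinocyte markers, Trp63, lower. That fit called 6.6% of all genes higher and 2.49% lower, against 14.1% and 6.51% with all libraries. The part of these cell types in the members' values was not tested.

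The order of the 6 libraries was looked at after these values were seen. Vegfb and Nrp1 had the same order as the summed adipocyte, endothelial, mural and red blood cell markers and the mitochondrial share of counts, from the first to the third vehicle library and then from the first to the third rebamipide library. It held for 2 of the 10 members and for 6.60% of all genes tested, and for Vegfa and Kdr as well. The first vehicle library was the lowest and the third the highest of the vehicle libraries in 7 of the 10 members and in 33.65% of all genes.

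To set the members against the markers, the log2 CPM of each gene was taken relative to the mean log2 CPM of the endothelial list in the same library. Over 11 such relative levels, groups were compared with two-sided exact permutation tests, where p = 0.1 is the smallest possible and its adjusted value was 0.1571. Vegfb alone of the 10 was higher relative to the endothelial list in every rebamipide library, at -0.79 ± 0.14 in vehicle and 0.35 ± 0.28 in rebamipide (exact p = 0.1). Nrp1 had 0.44 ± 0.28 and 1.16 ± 0.74 and overlapped (exact p = 0.3), as did Apln at -2.19 ± 0.88 and -2.41 ± 0.14 (exact p = 0.9), Aplnr at -0.07 ± 0.70 and -0.51 ± 0.25 (exact p = 0.4) and Nrp2 at 2.18 ± 1.44 and 1.69 ± 0.19 (exact p = 0.7). Vegfc, Pgf, Flt4, Angpt1 and Angpt2 were lower relative to the endothelial list in every rebamipide library, by differences from -0.46 for Flt4 to -1.63 for Angpt2 (exact p = 0.1 each). Relative to the lymphatic endothelial list Flt4 was higher in every rebamipide library, at -0.37 ± 0.14 and 2.20 ± 0.92 (exact p = 0.1).

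The same relative levels were then taken against the adipocyte list, a choice made after the data were seen. Vegfb had -3.36 ± 0.15 in vehicle and -3.58 ± 0.06 in rebamipide, a difference of -0.22 with overlapping groups (exact p = 0.2), so it changed by nearly as much as the adipocyte markers did. Nrp1 also overlapped, at -2.13 ± 0.31 and -2.77 ± 0.46 (exact p = 0.2). The other 8 genes were lower relative to the adipocyte list in every rebamipide library, by differences from -1.59 for Apln to -2.99 for Angpt2 (exact p = 0.1 each). These values describe how the genes tracked the lists, and they do not show in which cells the RNA was made.

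**Figure D3:**
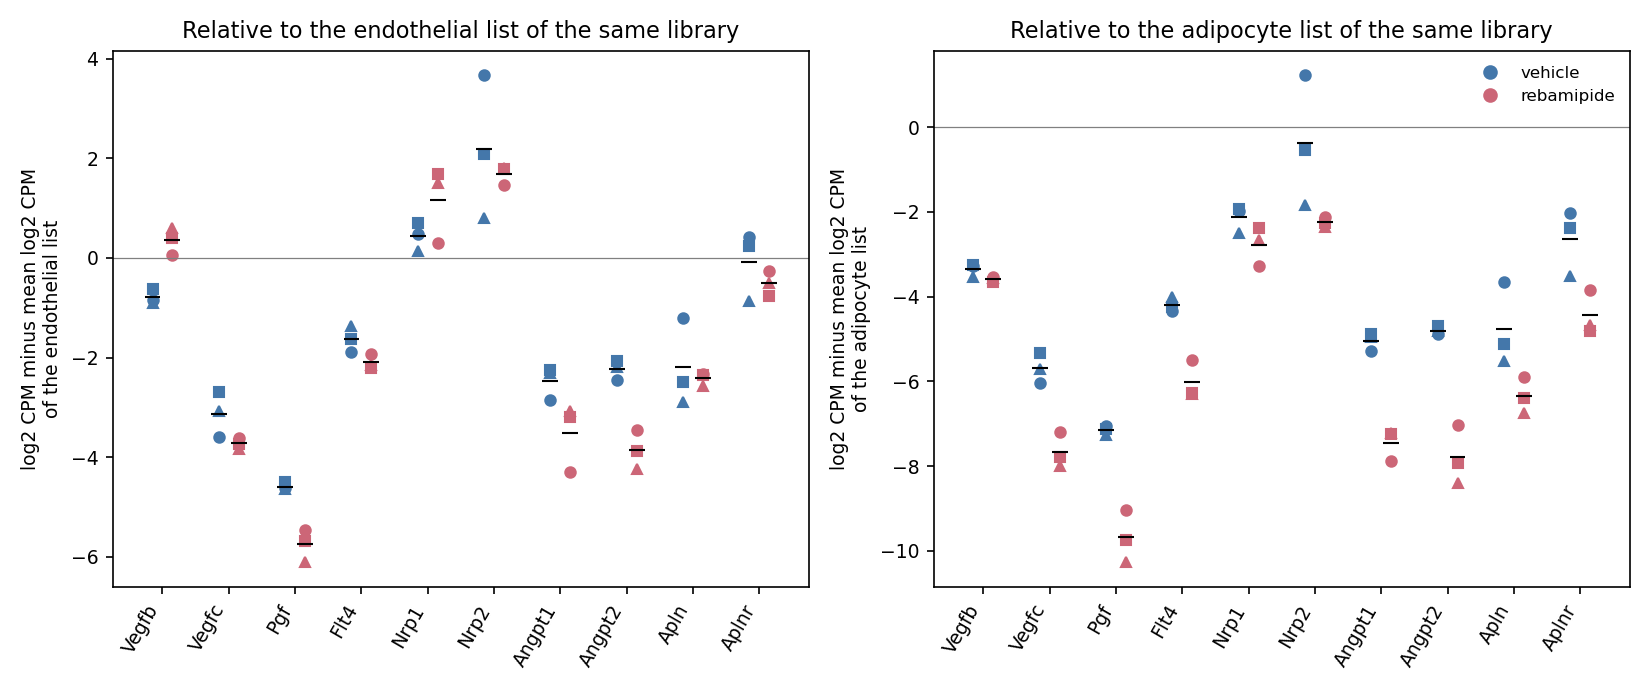
Log2 CPM of each of the 10 genes minus the mean log2 CPM of the endothelial list (left) or of the adipocyte list (right) in the same library, with replicates 1, 2 and 3 as circle, square and triangle and the group mean as a bar. Vegfb lies higher in rebamipide against the endothelial list and overlaps against the adipocyte list, where its means are -3.36 and -3.58.

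Across all 28 alternative fits the direction of Vegfb, Nrp1, Apln and Aplnr was the same, with log2 fold changes from 1.85 to 2.85, 1.35 to 2.62, 0.42 to 1.36 and 0.32 to 1.13. Their calls were kept in 24, 20, 17 and 14 of the 28 fits, and their highest adjusted p-values were 0.0788, 0.108, 0.168 and 0.26. Vegfc stayed positive and uncalled in all 28, and Pgf, Angpt1 and Angpt2 changed sign in 6, 6 and 3 of them without being called in any.

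**Figure D4:**
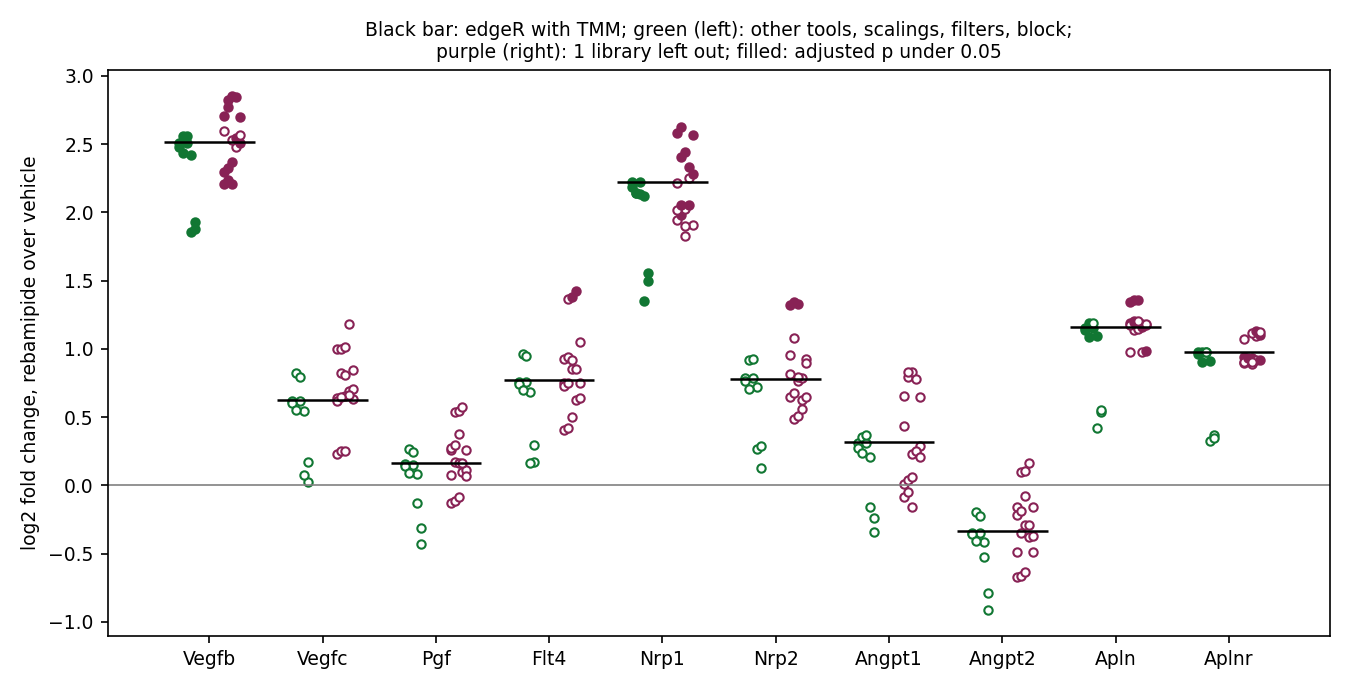
Log2 fold changes (y axis) of the 10 genes under other tools, scalings, filters and the block (green, left of each pair) and with 1 library left out (purple, right), with the value of edgeR with TMM as a black bar. Filled points had an adjusted p under 0.05: Vegfb is filled in 24 of 28 alternatives and Aplnr in 14, while Nrp2 is filled in 3 and Flt4 in 2.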

How the data were processed

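Poly-A RNA-seq libraries of dorsal skin from 3 vehicle and 3 rebamipide mice were analysed. The deposited table holds, per gene, read counts without normalization and FPKM. The FPKM deposited by the authors equal counts divided by gene length and by the library's summed counts. The submitters' processing notes name fastp 0.22.0, HISAT2 2.1.0, HTSeq 0.9.1 and GRCm39, without roles. Gene positions are those of the table and are read as GRCm39. Whether counting used strand is not given in the sources used here. The 12 sample columns were assigned by their names. Replicates of a group differed far beyond sampling noise, with 79.1 to 714 as chi-square over its degrees of freedom.

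Groups were compared with edgeR 4.0.16 in R 4.3.3 (TMM, filterByExpr, quasi-likelihood test, Benjamini-Hochberg adjustment over 14875 genes). The fits were tested on simulated counts with 200 changed genes. Apart from those genes the simulated libraries shared the same composition, unlike these, so that test says nothing of error rates here. CPM are normalized with TMM factors, and values are mean ± SD. Ratios and relative levels used counts + 0.5 and two-sided exact permutation tests (scipy 1.17.1). The members and lists were chosen with earlier results of these data known. Named genes are the 10 members, Vegfa, Vegfd, Flt1, Kdr, Tek and Tie1, and the 3 called genes with the smallest p in each direction of the remaining pathway list. Hif1a, Sema3a, Sema3d, Sema3g, Elovl3, Trp63 and the genes of the library check were named after their values were seen. Alternatives were DESeq2 1.42.0, limma-voom (limma 3.58.1), RLE, upper quartile and no factors, 2 other filters, the replicate number as a block, each library omitted once in edgeR, DESeq2 and limma-voom, and limma on log2(FPKM + 1) and log2(FPKM + 0.1). The adipocyte list as a reference, the GC box search and the calls of named genes and marker lists without the third rebamipide library were added after the data were seen. A planned comparison of protein sequences was not made.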

Additional observations from a re-analysis of the deposited data

How the results depend on the processing

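Of the 10 members, 4 were called higher by edgeR with TMM. Total counts alone, the replicate block, limma on log2(FPKM + 1) and limma on log2(FPKM + 0.1) each left 2, Vegfb and Nrp1, in fits that called 8.46%, 9.63%, 9.42% and 9.35% of all genes higher, and with 1 library left out the number ranged from 0 to 4 in edgeR, 4 to 5 in DESeq2 and 0 to 4 in limma-voom, where 0% to 18.3%, 13.3% to 23.8% and 1.4% to 18.1% of all genes were called higher. It was 0 without the second vehicle or the second rebamipide library in edgeR and in limma-voom, which called 1.4% and 1.67% of all genes higher there. In edgeR it was 2 without the third vehicle library (11.4% of all genes) and 1 without the third rebamipide library (6.6%). Members called lower stayed at 0 throughout. On the pathway list, the 10 genes called higher became 5 without scaling factors and 6 in limma on log2(FPKM + 0.1). With 1 library left out they became 0 to 12 in edgeR, 11 to 14 in DESeq2 and 1 to 13 in limma-voom, and without the third rebamipide library 3 in edgeR and limma-voom. The 5 called lower became 8 with DESeq2, 9 with total counts alone, 2 with the replicate block and 12 with log2(FPKM + 1) or log2(FPKM + 0.1), where 17%, 25.2%, 5.75%, 32.3% and 32.1% of all genes were lower, so most of these counts lie near the background of their own fit. With 1 library left out they became 0 to 7 in edgeR, 5 to 12 in DESeq2 and 0 to 4 in limma-voom, where 0% to 12.8%, 9.48% to 27.3% and 0.0468% to 9.16% of all genes were lower. The cause was not tested. With total counts alone, 1258 genes of the table were higher and 3752 lower, against 2093 and 968 with TMM. Same-numbered deviations from the group means correlated at 0.01, -0.04 and 0.02, where other pairs ran from -0.315 to 0.39. With 3 libraries per group, these values cannot show whether the replicate numbers pair the libraries. With the replicate block the adjusted p was 0.0713 for Apln and 0.0838 for Aplnr. With 1 library left out, the difference in ratio ran from -0.09 to 0.46 for Apln to Aplnr, from -1.17 to -0.17 for Angpt2 to Angpt1, from 0.05 to 0.46 for Vegfb to Vegfa, from 0.50 to 1.77 for Nrp1 to Nrp2, and from -2.60 to -1.57 over the 3 ratios without overlap. Against the endothelial list, with 1 library left out, the difference ran from -1.19 to 0.24 for Nrp2, from -0.57 to 0.27 for Apln and from -0.84 to -0.19 for Aplnr. It ran from 0.47 to 1.15 for Nrp1, from -1.27 to -0.65 for Angpt1 and from -0.84 to -0.39 for Vegfc. Of 86 alternative relative levels, 71 moved by less than 1 SD, a wide measure for these genes. Those that moved further all came from a change of the reference. They were every gene with the adipocyte list, and Vegfb, Vegfc, Pgf, Flt4 and Angpt2 with Pecam1 and Cdh5 alone. With Pecam1 and Cdh5 alone as the endothelial reference, the difference was 0.77 for Vegfb, 0.35 for Nrp1 and -0.84 for Flt4. With the adipocyte list it was -0.22 for Vegfb. The lowest counts were those of Pgf, 32 to 86 per library.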
